A study of Mus musculus with 6 samples.

Results

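Cholesterol synthesis was followed through 8 genes, chosen by name from the 23896 genes with a symbol in the count files: Hmgcs1, Idi1, Fdft1, Sqle, Lss and Cyp51, which encode enzymes of the pathway, and Insig1 and Srebf2, which encode its regulators. None of the 8 encodes an uptake protein, so uptake is described from a wider list of genes. Each of the 8 was counted as 1 transcript, and all 8 passed the filter on low counts. The samples were mouse erythroleukemia (MEL) cells, a virus-transformed line held at an early erythroid stage, grown in suspension in medium with 10% fetal bovine serum. Cells were collected before (day 0) and 2 and 4 days after the addition of 2% DMSO, which induces erythroid differentiation, with 2 biological replicate cultures per day and 6 mRNA-seq libraries in all. Cultures kept for 2 or 4 days without DMSO were not analysed here, so the effects of DMSO and of time in culture cannot be told apart, and all samples come from 1 cell line.

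Cells make cholesterol from acetyl-CoA through mevalonate, the isoprenoids and squalene, and they also take it up from serum lipoproteins. Both routes are controlled by SREBP2, the product of Srebf2, a membrane-bound transcription factor that SCAP escorts from the endoplasmic reticulum to the Golgi when sterols are low, where it is cleaved and released to the nucleus. When sterols are plentiful, INSIG proteins hold SCAP and SREBP2 back, and the synthesis genes and INSIG1 itself are transcribed less.

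SREBP binds sterol regulatory elements in promoters, usually beside sites for NF-Y, which binds CCAAT, and Sp1, which binds GGGCGG. RefSeq promoter windows (GRCm38.p6, 250 bases before to 50 bases after the start site) were matched for 6 of the 8 genes. Sqle and Fdft1 had no entry. The stretches of 28 bases below are shown because they hold the sterol element core TCACCCCA where a window has it, and otherwise a CCAAT box, with the match in capitals (CCAAT reads ATTGG where it lies on the other strand).
Hmgcs1: cgtcaccgtcTCACCCCActtcccaggt
Srebf2: tgacgcaccaTCACCCCAtgagccgctt
Idi1: gcctccagctgATTGGcgagcccgggca
Lss: gtgatgctctgATTGGccgagctcgcat
Cyp51: gctgtccgccaCCAATctggtcctgaga
Insig1: gccctcctcccATTGGctccggcggcct
They lie at chr13:119690204-119690231 for Hmgcs1 and chr15:82147097-82147124 for Srebf2, where the core begins at positions -137 and -162 from the start site. The CCAAT stretches lie at chr13:8885550-8885577 for Idi1, chr10:76531532-76531559 for Lss, chr5:4104710-4104737 for Cyp51 (minus strand, the others plus) and chr5:28071185-28071212 for Insig1.

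On both strands, TCACCCCA was found in 2 of the 6 windows and in 1.56% of the 32851 promoter windows of the genome. These letters were chosen after the windows had been seen. The looser form TCACNCCAC, which overlaps TCACCCCA, was found in Hmgcs1 alone of the 6 and in 1.24% of all windows, and the longer sterol element consensus was in 0 of 6 and in 0.091% of all. CCAAT and GGGCGG were in all 6 windows, against 37.4% and 35.7% of all promoters. The Hmgcs1 window held 4 CCAAT boxes and the Srebf2 window 5 GGGCGG boxes, the highest numbers of each among the 6. A match is a description of the letters and does not show binding.

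**Figure D1:**
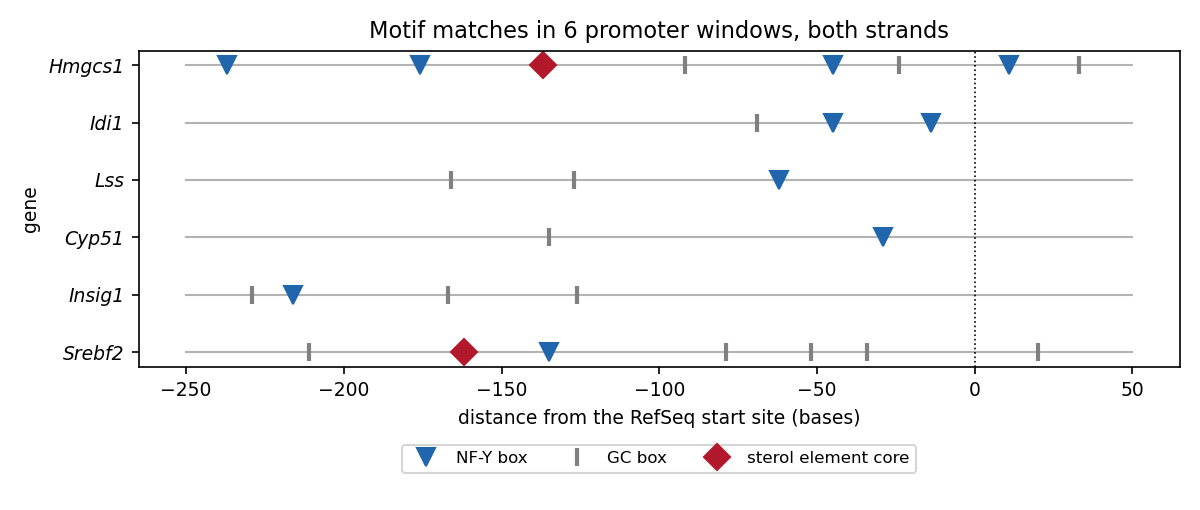
Motif matches in the 6 promoter windows, one line per gene, against distance from the RefSeq start site in bases; triangles are NF-Y boxes, ticks GC boxes and diamonds the sterol element core. The diamonds are on the Hmgcs1 and Srebf2 lines, at -137 and -162, and each line carries at least 1 triangle and 1 tick.

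The libraries held 35294930 to 53899476 counts on transcripts. The 8 genes had between 323 and 5732 counts per library, the fewest for Fdft1. Levels are given as CPM, counts normalised to library size and scaled by TMM factors, and differences as log2 fold changes with their standard error (SE) from 1 edgeR quasi-likelihood fit, called at an adjusted p under 0.05 over 18351 transcripts. The day 0 replicates lay farther apart than those of the other days, with a chi-square per degree of freedom of 60.3 against 10.8 at day 2 and 16.9 at day 4. Erythroid markers (10 of 10 counted) summed to 1100 and 1160 CPM in the day 0 libraries and 4325 and 5138 CPM in those of day 2. In the day 4 libraries they summed to 17730 and 19880 CPM, most of it from Hba-a1 and Hbb-bs (means 10630 and 5035 CPM). Klf1 went the other way, with a log2 change of -0.54 at day 4 against day 0 (SE 0.18, edgeR adjusted p = 0.0188). It was also called lower at day 2, where Gata1 and Tfrc were not called. Myeloid markers (7 of 8 counted) summed to 106 to 127, 14.4 to 15.2 and 8.90 to 13.9 CPM at days 0, 2 and 4. Most of it came from Spi1, the PU.1 gene, and Itgam was at 0 at day 4. Lyz2, at most 1.72 CPM in any library, rose by 2.08 at day 2 (SE 0.38, edgeR adjusted p = 0.000699). From day 2 to day 4 its log2 change was -2.12 (SE 0.39, edgeR adjusted p = 0.00286). The 4 lymphoid markers summed to 31.6 to 31.7, 16.3 to 19.3 and 9.12 to 9.21 CPM, nearly all from Ptprc, with Cd3e at 0 at day 0. The 6 megakaryocyte and mast cell markers summed to 270.9 to 274.5, 211 to 233 and 543 to 617 CPM, most of it from Itga2b, which rose by 1.38 on the log2 scale over the 4 days (SE 0.13, edgeR adjusted p = 2.39e-06). Pf4 fell by 2.39 (SE 0.16, edgeR adjusted p = 3.18e-07), Cpa3 and Fcer1a were also called lower, to between 0 and 0.0277 CPM, Gp9 was called higher, and Mcpt8 was at 0 at days 2 and 4. The 4 stromal and endothelial markers stayed between 1.05 and 2.94 CPM, with Col3a1 and Cdh5 at 0 in every library. The part of these markers in the changes below was not tested. In bulk RNA, fewer cells expressing a gene and less RNA per cell cannot be told apart.

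The summed level of the 8 genes fell in the first 2 days and came back in part, but the genes did not all move this way. The sum was 465.5 and 427 CPM at day 0, 313 and 321 CPM at day 2, and 392 and 420 CPM at day 4. Day 2 lay below both other days and day 4 just below day 0. The 6 enzymes alone summed to 287 and 263 CPM at day 0, 191 and 192 at day 2, and 207 and 199.8 at day 4. Most of the rise in the sum from day 2 to day 4 lay in Insig1 and Srebf2. Insig1 had not fallen before it, with means of 55.1, 54.6 and 91.0 CPM at days 0, 2 and 4. A sum follows the most abundant transcripts. Of the 8 genes, 4 were called lower at day 2 and 4 were not called, and Cyp51 was lowest at day 4.

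**Figure D2:**
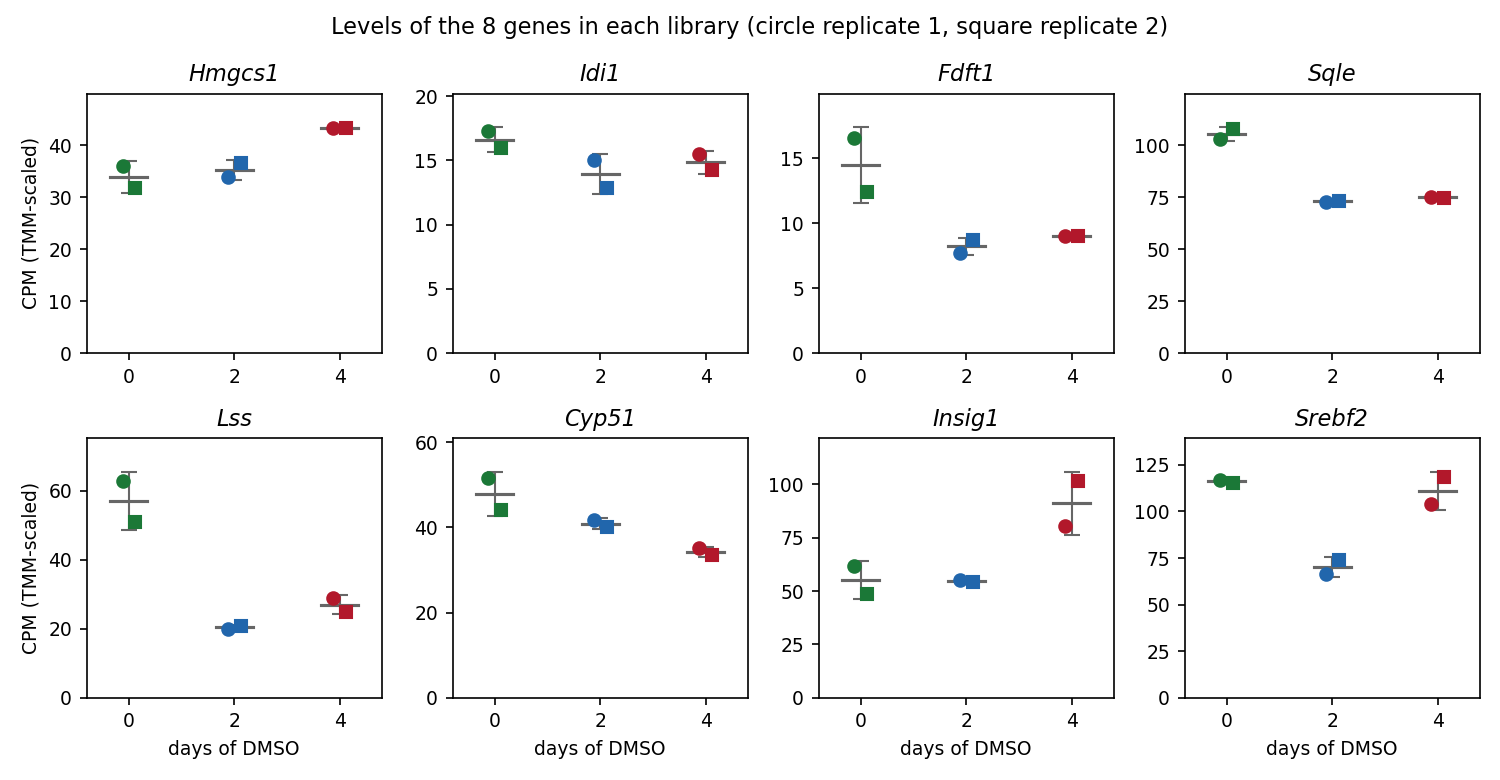
Level of each of the 8 genes in CPM (y axis, each panel from 0) in the 2 libraries of days 0, 2 and 4 (x axis); circles are replicate 1, squares replicate 2, horizontal lines the mean and bars 1 SD. Lss drops from 62.9 and 50.9 to 20.02 and 20.84 CPM at day 2, Srebf2 dips and returns, and Insig1 is higher at day 4 alone.

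In levels per length, Sqle had the most transcript at day 0, at 38.2 ± 1.18 CPM per kilobase (SD, n = 2). Srebf2 followed at 22.9 ± 0.173 and Insig1 at 20.4 ± 3.35, which do not differ beyond their spread. Lss (12.2 ± 1.81) and Cyp51 (12.2 ± 1.32) could not be separated either, and Hmgcs1 (9.77 ± 0.89), Idi1 (5.49 ± 0.314) and Fdft1 (3.91 ± 0.79) came last. At day 4 the order had shifted. Insig1 led at 33.8 ± 5.45 CPM per kilobase, ahead of Sqle at 27.2 ± 0.157 and Srebf2 at 21.9 ± 2.0. Hmgcs1, at 12.5 ± 0.0189, stood above Cyp51 at 8.72 ± 0.284 and Lss at 5.77 ± 0.607, and Idi1 (4.90 ± 0.287) and Fdft1 (2.44 ± 0.00323) remained lowest.

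Srebf2 (chr15:82147269-82205379, plus strand, 19 exons), the gene of the controlling transcription factor, dipped at day 2 and returned to its starting level. Its level was 116.7 and 115.5 CPM at day 0, 66.4 and 74.0 CPM at day 2, and 103.9 and 118.3 CPM at day 4. Both day 2 libraries lay below all 4 others, and the ranges of days 0 and 4 overlapped. It fell by 0.73 on the log2 scale at day 2 (SE 0.11, 1.65-fold, edgeR adjusted p = 0.000196) and rose by 0.66 from day 2 to day 4 (SE 0.11, 1.58-fold, edgeR adjusted p = 0.00167). The second of these calls was lost without day 2 replicate 1 (log2 change 0.58, edgeR adjusted p = 0.0525). From day 0 to day 4 the log2 difference was -0.06 (SE 0.11, edgeR adjusted p = 0.618). Whether the steps differed was tested as the second step minus the first, a value that is also positive after a fall with no return. It was 1.39 on the log2 scale (SE 0.20, edgeR adjusted p = 0.000741) and stayed called in every alternative run.

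Insig1 (chr5:28071412-28078662, plus strand, 5 exons) encodes the protein that retains the SCAP and SREBP complex and is itself a target of SREBP. Its level was 61.5 and 48.7 CPM at day 0, 54.9 and 54.2 CPM at day 2, and 80.7 and 101.4 CPM at day 4. The day 2 libraries lay between the day 0 libraries, and both day 4 libraries lay above all others. Its log2 difference at day 2 was -0.01 (SE 0.14, edgeR adjusted p = 0.939). From day 2 to day 4 it rose by 0.74 (SE 0.14, 1.67-fold, edgeR adjusted p = 0.0033), and from day 0 to day 4 by 0.73 (SE 0.14, 1.65-fold, edgeR adjusted p = 0.000708). The rise from day 2 was not called without day 2 replicate 1 (log2 change 0.75, edgeR adjusted p = 0.0551). The difference between its steps was 0.75 (SE 0.25, edgeR adjusted p = 0.0398). Among fits with 1 library left out, that call was lost without day 2 replicate 1 (edgeR adjusted p = 0.226), without day 2 replicate 2 (0.237) or without day 4 replicate 2 (0.129), and it was also lost with scaling by total counts (0.151).

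Hmgcs1 (chr13:119690351-119708260, plus strand, 11 exons) encodes the cytosolic synthase that makes HMG-CoA, the precursor of mevalonate. It was the only enzyme of the 6 called higher at day 4 than at day 0. Its level was 36.0 and 31.7 CPM at day 0, 33.8 and 36.6 CPM at day 2, and 43.3 and 43.4 CPM at day 4. Days 0 and 2 overlapped, and both day 4 libraries were above them. Hmgcs1 rose by 0.36 on the log2 scale from day 0 to day 4 (SE 0.11, 1.28-fold, edgeR adjusted p = 0.0154). That call was lost without day 4 replicate 1 (edgeR adjusted p = 0.0677) or day 4 replicate 2 (0.0792). The step from day 2 to day 4 was 0.30 (SE 0.11, edgeR adjusted p = 0.0695). It was called without day 0 replicate 1 (0.014) or day 0 replicate 2 (0.0135), and the step to day 2 was 0.06 (SE 0.11, edgeR adjusted p = 0.678).

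Idi1 (chr13:8885606-8892396, plus strand, 5 exons), the isomerase that interconverts the isoprenoid building blocks, did not pass the test between any days. Its level was 17.3 and 15.9 CPM at day 0, 15.0 and 12.8 CPM at day 2, and 15.5 and 14.2 CPM at day 4. The day 0 libraries were the highest, and days 2 and 4 overlapped. The log2 differences were -0.25 (SE 0.13, edgeR adjusted p = 0.117) at day 2 against day 0 and -0.16 (SE 0.13, edgeR adjusted p = 0.29) at day 4 against day 0. Of the 25-base words of its annotated transcript, 22.4% also occur in other genes, mainly Gm13502 and Gm35570, so its counts are less certain than those of the other enzymes.

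Fdft1 (chr14:63145150-63181687, minus strand, 10 exons) encodes squalene synthase, which commits farnesyl diphosphate to sterols. Its level was 16.5 and 12.4 CPM at day 0, 7.74 and 8.69 CPM at day 2, and 9.03 and 9.02 CPM at day 4. Both day 0 libraries were above the 4 later ones. It fell by 0.81 at day 2 (SE 0.16, 1.76-fold, edgeR adjusted p = 0.00118) and was 0.68 lower on the log2 scale at day 4 than at day 0 (log2 change -0.68, SE 0.16, edgeR adjusted p = 0.00282). The step from day 2 to day 4 was 0.13 (SE 0.16, edgeR adjusted p = 0.566). The difference between the steps was 0.95 (SE 0.29, edgeR adjusted p = 0.0293), a call lost on leaving out either day 2 library (0.26 and 0.125) or either day 4 library (0.0586 and 0.0568), and with scaling by total counts (0.0971). Other genes, mainly Gm6781, hold 18.7% of the 25-base words of Fdft1.

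Sqle (chr15:59315092-59331193, plus strand, 11 exons), squalene epoxidase, is a control point of the later pathway. Its level was 103.1 and 107.7 CPM at day 0, 72.8 and 73.4 CPM at day 2, and 75.4 and 74.8 CPM at day 4. The groups did not overlap between day 0 and the later days, and replicates were close. Sqle fell by 0.53 at day 2 (SE 0.10, 1.44-fold, edgeR adjusted p = 0.000698), and its log2 change at day 4 against day 0 was -0.49 (SE 0.10, 1.40-fold, edgeR adjusted p = 0.000833). The step from day 2 to day 4 was 0.04 (SE 0.10, edgeR adjusted p = 0.788). The difference between the steps was 0.57 (SE 0.17, edgeR adjusted p = 0.0281), again lost without either day 2 library (0.225 and 0.198) or either day 4 library (0.0848 and 0.0779), and with scaling by total counts (0.227).

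Lss (chr10:76531565-76557139, plus strand, 22 exons) encodes lanosterol synthase, which closes the sterol rings, and it changed most of the 8 in the comparisons with day 0. Its level was 62.9 and 50.9 CPM at day 0, 20.02 and 20.84 CPM at day 2, and 28.9 and 24.9 CPM at day 4. The 3 days did not overlap. Lss fell by 1.48 at day 2 (SE 0.14, 2.78-fold, edgeR adjusted p = 5.75e-06), and at day 4 the log2 change against day 0 was still -1.08 (SE 0.13, 2.11-fold, edgeR adjusted p = 2.73e-05). The rise from day 2 to day 4 was 0.40 (SE 0.14, edgeR adjusted p = 0.0457). It was not called when any library of those days was left out, with adjusted p-values of 0.254 and 0.168 without the first or second day 2 library and 0.26 and 0.0873 without the first or second day 4 library, nor with scaling by total counts (0.116). The difference between the steps, 1.88 (SE 0.24, edgeR adjusted p = 0.000459), stayed called in every alternative run.

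Cyp51 (chr5:4080674-4104697, minus strand, 10 exons), the lanosterol demethylase and the first step after Lss, declined in small steps. Its level was 51.5 and 44.2 CPM at day 0, 41.8 and 40.0 CPM at day 2, and 35.1 and 33.5 CPM at day 4. The 3 days did not overlap. The log2 differences of the steps were -0.23 (SE 0.12, edgeR adjusted p = 0.108) and -0.26 (SE 0.12, edgeR adjusted p = 0.117), and over the 4 days it fell by 0.48 (SE 0.12, 1.40-fold, edgeR adjusted p = 0.00302). The step to day 2 was called without day 0 replicate 2 (0.0104), and the step to day 4 without day 0 replicate 1 (0.0249) or replicate 2 (0.0248). The steps differed by -0.03 (SE 0.20, edgeR adjusted p = 0.925).

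**Figure D3:**
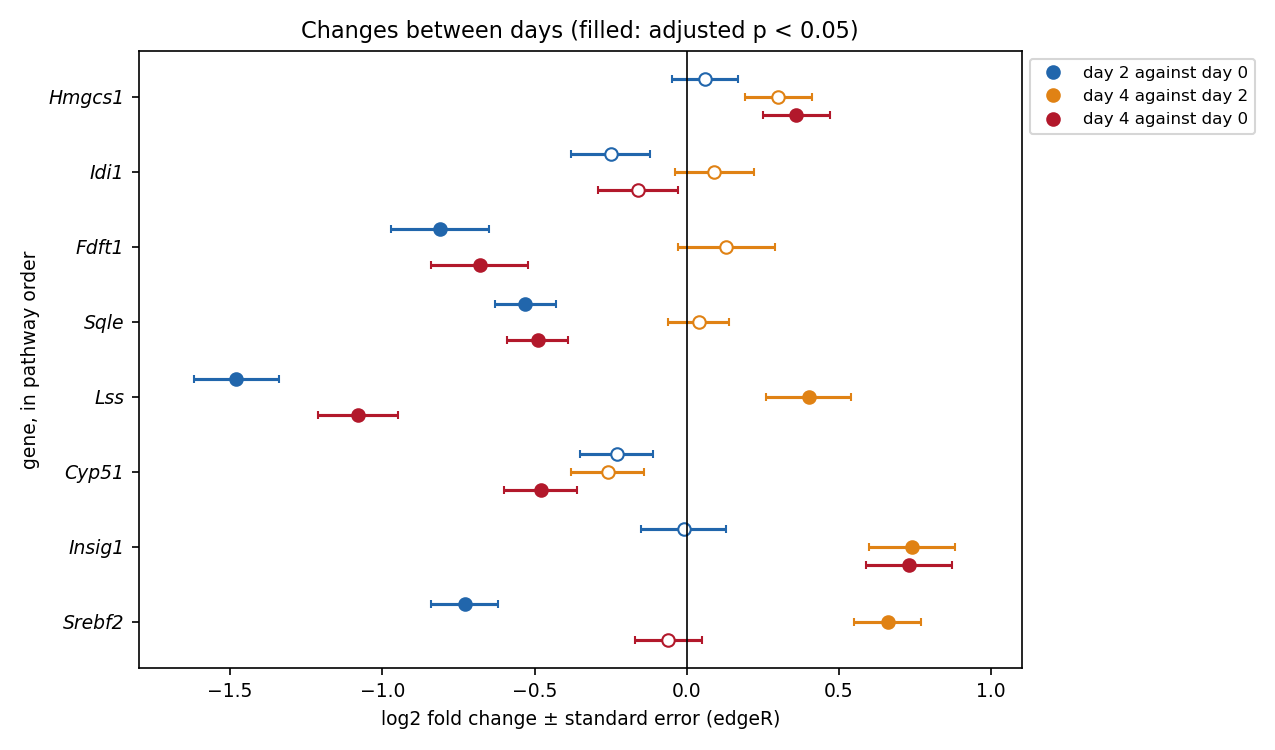
Log2 fold change (x axis) of the 8 genes for day 2 against day 0, day 4 against day 2 and day 4 against day 0. Bars are the standard error derived from the edgeR fit and filled points have an adjusted p under 0.05. At day 2 the filled points are Fdft1, Sqle, Lss and Srebf2, all left of 0, and from day 2 to day 4 they are Lss, Insig1 and Srebf2, all right of 0.

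At day 2 against day 0, 4 of the 8 genes were called (Fdft1, Sqle, Lss and Srebf2), fewer by share than the 63.4% of all 18351 transcripts called in that comparison. All 4 were lower, where 31.9% of all transcripts were called higher and 31.6% lower, and the median log2 change of the 8 was -0.39 against 0.02 for all transcripts. From day 2 to day 4, 3 of 8 were called (Lss, Insig1 and Srebf2), near the 31.0% of all transcripts. All 3 were higher, where 14.6% of all transcripts were called higher and 16.4% lower, and the median was 0.22 against 0.00. At day 4 against day 0, 6 of 8 were called against 72.3% of all transcripts. Hmgcs1 and Insig1 were higher (36.2% of all transcripts were) and Fdft1, Sqle, Lss and Cyp51 lower (36.1%), with a median of -0.32 against 0.00. The difference between the steps was called in 5 of 8 (Fdft1, Sqle, Lss, Insig1 and Srebf2), where it was called in 30.0% of all transcripts. In all 5 the second step was the more upward, a direction called in 13.1% of all transcripts, with 16.9% in the other. That count of 5 was lower without any 1 library of day 2 or day 4, and so were the calls over all transcripts. With scaling by total counts it was 2. Under that scaling 1293 of 18351 transcripts were called in the upward direction, against 2406 with TMM. A fall with no later change also makes this difference positive, as for Fdft1 and Sqle, whose second step was not called. These comparisons share libraries, so their calls are not independent of each other. Without day 2 replicate 1, 0 of the 8 genes were called by edgeR from day 2 to day 4 (2 at an unadjusted p under 0.05), and calls over all transcripts fell from 5684 to 1410.

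A fall at day 2 followed by a rise at day 4, both called, was found for Lss and Srebf2, 2 of the 8 genes, against 1.75% of all transcripts. Without day 2 replicate 1 neither gene met this rule, since neither rise was called, and without day 2 replicate 2, day 4 replicate 1 or day 4 replicate 2 only Srebf2 did. The pattern was also found for 4 of the 68 other tested genes of sterol and fatty acid metabolism, among them Mvd, Msmo1 and Gramd1a, which are named because of these values.

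Among the 15 other enzymes from acetyl-CoA to cholesterol, 2 were called higher and 7 lower at day 2, 3 higher from day 2 to day 4, and 3 higher and 6 lower at day 4 against day 0. The 9 called at day 2 and the 9 called over the 4 days were no larger shares of the 15 than the 63.4% and 72.3% of all transcripts. By direction, 31.9% of all transcripts were called higher and 31.6% lower at day 2. From day 2 to day 4, 14.6% were called higher, and over the 4 days 36.2% were higher and 36.1% lower. Of the 6 other mevalonate and isoprenoid enzymes, 5 were lower at day 2 (median log2 change -0.69), and of the 9 other squalene and sterol enzymes, 2 were higher and 2 lower (median -0.09). The difference between these groups of enzymes was not tested.

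Fdps, which makes farnesyl diphosphate, had the largest fall of the other enzymes. Its levels were 48.8 and 71.5 CPM at day 0, 13.5 and 13.2 CPM at day 2, and 16.9 and 15.1 CPM at day 4, a log2 change of -2.18 at day 2 (SE 0.17, 4.52-fold, edgeR adjusted p = 2.21e-06) and -1.91 over the 4 days (SE 0.17, 3.77-fold, edgeR adjusted p = 2.2e-06). The day 0 libraries were well above the rest, and the rise from day 2 to day 4, 0.26, was not called (SE 0.17, edgeR adjusted p = 0.265). Pmvk, phosphomevalonate kinase, fell by 1.25 over the 4 days (SE 0.14, edgeR adjusted p = 1.19e-05). Mvd, which decarboxylates mevalonate diphosphate and was counted here on a non-coding RefSeq transcript, fell by 1.17 at day 2 (SE 0.14, edgeR adjusted p = 3.64e-05) and rose by 0.68 at day 4 (SE 0.14, edgeR adjusted p = 0.00511). The rise of Mvd was not called without day 2 replicate 1 (log2 change 0.56, edgeR adjusted p = 0.093).

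**Figure D4:**
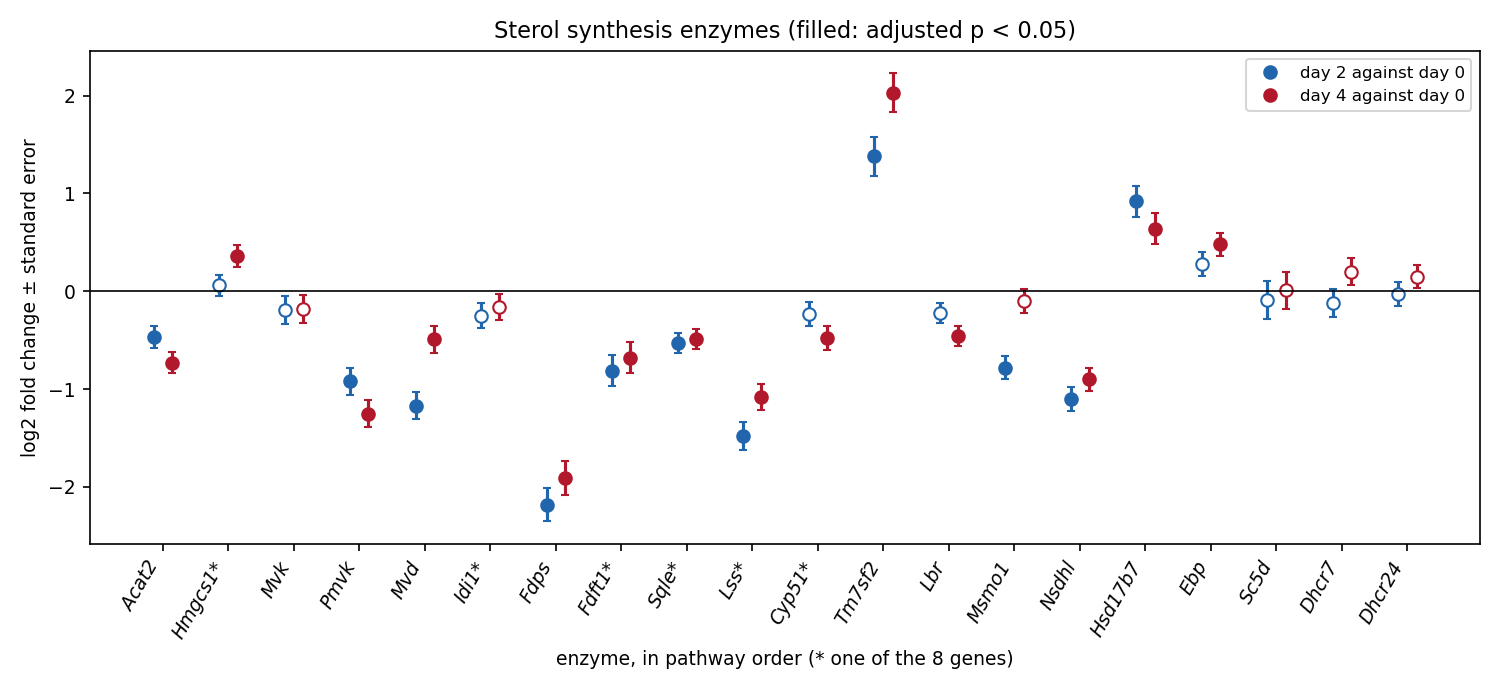
Log2 fold change (y axis) of sterol synthesis enzymes in pathway order (x axis, asterisks mark those among the 8 genes), at day 2 against day 0 and day 4 against day 0; bars are the standard error and filled points have an edgeR adjusted p under 0.05. Fdps has the lowest points, -2.18 and -1.91, and Tm7sf2 the highest, up to 2.03.

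After lanosterol, enzymes of the same stretch moved in opposite directions. Tm7sf2, a sterol reductase that acts directly after Cyp51, rose from 2.28 and 3.59 CPM at day 0 through 7.78 and 7.61 CPM at day 2 to reach 11.4 and 12.7 CPM, with a log2 change of 2.03 over the 4 days (SE 0.20, 4.08-fold, edgeR adjusted p = 4.29e-06). Lbr, the inner nuclear membrane protein that carries the same reductase activity, fell by 0.46 (SE 0.10, edgeR adjusted p = 0.00199), from 182 and 171 CPM at day 0 to 128 and 129 at day 4. Per length, Lbr was still the more abundant at day 4, at 36.7 ± 0.148 CPM per kilobase against 8.21 ± 0.607 for Tm7sf2 (SD, n = 2). Msmo1, the sterol methyl oxidase, also dipped at day 2, at 27.6 and 25.6 CPM, then 16.1 and 14.9, then 25.5 and 24.3. It fell by 0.78 at day 2 (SE 0.12, edgeR adjusted p = 0.000191) and rose by 0.69 at day 4 (SE 0.12, edgeR adjusted p = 0.00201). Nsdhl, a sterol dehydrogenase, fell by 0.90 over the 4 days (SE 0.12, edgeR adjusted p = 4.63e-05), and Hsd17b7, which works in the same demethylation cycle, rose by 0.64 (SE 0.16, edgeR adjusted p = 0.00395).

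Of the 10 other genes that control SREBP or the turnover of the pathway, 4 were called higher and 2 lower at day 4 against day 0, where 36.2% of all transcripts were called higher and 36.1% lower. Mbtps2, the membrane protease that releases SREBP, went from 22.4 and 21.8 CPM at day 0 to 44.9 and 47.7 at day 4 (log2 change 1.07, SE 0.11, edgeR adjusted p = 6.68e-06). The day 4 libraries lay above those of day 0. Erlin1, which works in protein degradation at the endoplasmic reticulum, fell by 0.51 (SE 0.11, edgeR adjusted p = 0.00161). Srebf1, the SREBP gene best known for fatty acid synthesis, was at 1369 and 1186 CPM at day 0, 629 and 558 at day 2, and 437 and 813 at day 4. Its day 4 replicates lay far apart, and the fall of 1.03 (SE 0.23, edgeR adjusted p = 0.00202) ranged from -1.55 to -0.65 when each library was left out in turn.

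Of 14 genes for sterol uptake and transport into the cell, 12 were tested (Vldlr and Gramd1b had too few counts), with 3 higher and 6 lower at day 2, 4 higher and 3 lower from day 2 to day 4, and 4 higher and 5 lower over the 4 days. Of all transcripts, 63.4%, 31.0% and 72.3% were called in these comparisons, so the 9 of 12 called over the 4 days was near the background. The shares higher and lower were 31.9% and 31.6% at day 2, and 14.6% and 16.4% from day 2 to day 4. Over the 4 days they were 36.2% and 36.1%. Mylip, a ubiquitin ligase for lipoprotein receptors, was at 8.26 and 6.83 CPM at day 0, 20.4 and 21.6 CPM at day 2, and 37.0 and 44.7 CPM at day 4. The 3 days did not overlap, and the log2 change over the 4 days was 2.44 (SE 0.15, 5.43-fold, edgeR adjusted p = 1.56e-07). Gramd1a, which moves cholesterol from the plasma membrane to the endoplasmic reticulum, was at 62.4 and 70.8 CPM at day 0, 48.7 and 51.0 CPM at day 2, and 74.4 and 82.0 CPM at day 4. The day 2 libraries were the lowest and those of day 4 the highest. It fell by 0.42 at day 2 (SE 0.11, edgeR adjusted p = 0.00653) and rose by 0.65 at day 4 (SE 0.11, edgeR adjusted p = 0.00183). Its fall was not called without day 2 replicate 1 (edgeR adjusted p = 0.0703). In the lysosome, cholesterol from lipoproteins is freed by Lipa, the acid lipase, and exported through Npc1. Lipa was at 17.4 and 14.5 CPM at day 0, 10.8 and 9.56 CPM at day 2, and 5.68 and 5.79 CPM at day 4, and fell by 1.48 over the 4 days (SE 0.15, edgeR adjusted p = 5.76e-06). Npc1 was at 32.4 and 26.1 CPM at day 0, 45.3 and 48.5 CPM at day 2, and 55.8 and 54.0 CPM at day 4, and rose by 0.91 (SE 0.12, edgeR adjusted p = 5.68e-05). For both genes the 3 days did not overlap.

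**Figure D5:**
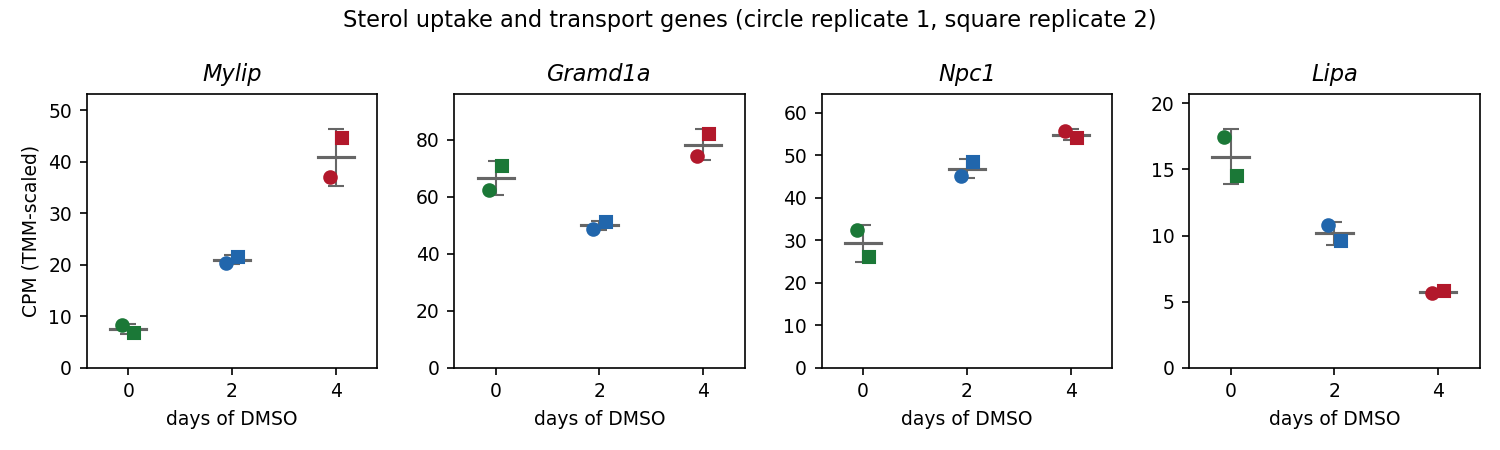
Level in CPM (y axis) of Mylip, Gramd1a, Npc1 and Lipa in the 2 libraries of days 0, 2 and 4 (x axis); circles are replicate 1, squares replicate 2, horizontal lines the mean and bars 1 SD. Mylip ends at 37.0 and 44.7 CPM, Gramd1a is lowest at day 2, Npc1 ends above day 0, and Lipa ends at 5.68 and 5.79 CPM.

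Of 11 genes of sterol storage and efflux, 9 were tested (Ch25h and Cyp27a1 were not), and 1 was higher and 4 lower at day 4 against day 0, where 36.2% and 36.1% of all transcripts were. Soat2, which esterifies cholesterol, fell by 1.02 (SE 0.17, edgeR adjusted p = 0.000223), with 72.8 and 83.5 CPM at day 0 and 46.4 and 30.7 at day 4. Its log2 change ranged from -1.35 to -0.75 when each library was left out in turn. Apoe, a lipoprotein component that carries cholesterol out of cells, fell by 1.01 on the log2 scale (SE 0.12, edgeR adjusted p = 2.38e-05), with 19.7 and 20.2 CPM at day 0 and 9.89 and 9.92 at day 4. Nr1h2, a sterol-sensing nuclear receptor gene, rose by 0.69 (SE 0.19, edgeR adjusted p = 0.00632). Its day 0 libraries were far apart at 35.2 and 56.7 CPM, with 68.8 and 79.7 at day 4. With each library left out in turn, its rise ranged from 0.38 to 1.06.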

How the data were processed

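Polyadenylated RNA of MEL cells (stranded TruSeq libraries from Trizol RNA, 2 per day) was sequenced by the authors. The submitters' processing notes name cutadapt, TopHat, HTSeq, DESeq2 and mm10. Versions of HTSeq and of the annotation, and its overlap settings, are not given in the sources used here. The deposited values are raw counts per RefSeq transcript, with 5 rows that name no transcript. Reads in no feature came to 50.5% to 58.4% of each library's counts and were left out of library sizes and tests, and the rows for ambiguous and non-unique reads were 0. Genes embedded in exons of the opposite strand had almost no counts (0 for Msmp inside Rgp1, which had 21790). Counting by strand would give this, but so would dropping reads that overlap 2 genes, so the values cannot tell these apart. Exons of Hmgcs1, Idi1, Fdft1, Lss and Cyp51 overlap exons on the opposite strand, the most for Fdft1 (774 bases with Ctsb).

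Symbols were matched for 32195 of 32654 transcripts in the RefSeq table and 191 in GENCODE, and 268 had none. Each gene was followed on its transcript with the highest mean count. edgeR 4.0.16 in R 4.3.3 (glmQLFit, glmQLFTest, TMM, filterByExpr by day) was fitted once to all 6 libraries, with Benjamini-Hochberg adjustment over 18351 transcripts, and was tested on simulated data. Comparisons were day 2 against day 0, day 4 against day 2, day 4 against day 0, and the difference between the steps. The edgeR test gives no SE, so it was derived as the size of the log2 change divided by the square root of the F statistic. Alternatives were DESeq2 1.42.0, other scalings, no filter, only the days compared, a replicate block, 1 transcript per gene, a log2 change of at least 1, and leaving out each library. TMM-scaled CPM, divided by annotated transcript length for levels per length, describe levels.

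The 8 genes and the gene lists were chosen with earlier results of these data known. Other genes named are the 2 largest called rises and falls at day 4 against day 0 of each list and the 5 genes nearest to the median pair of changes of the 8. Genes outside that rule are named as such, and some genes within it are not reported here, although counts per list include them. Replicates are separate cultures of 1 cell line. The labels do not say whether replicates sharing a number came from 1 starting culture, and the main fit did not pair them. Their deviations correlated at 0.034, 0.03 and 0.117 between days. Low correlations show little shared effect of the number and cannot tell how the cultures were set up.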

Additional observations from a re-analysis of the deposited data

How the results depend on the processing

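Of 440 repeats of the results on the 8 genes under other settings, 396 kept direction and side of the threshold, 24 lost a call, 7 gained one and 13 turned direction, and the 13 were not called either way. With a log2 change of at least 1 also required, calls among the 8 were 1 (day 2 against day 0), 0 (day 4 against day 2), 1 (day 4 against day 0) and 2 (difference between the steps). Among the other pathway genes they were 17, 2 and 17 for the comparisons of days, against 41, 18 and 45 by edgeR without that limit. The share of all transcripts passing that limit was not counted, so these counts cannot be read as few or many. With only the days compared in the fit, 5 of the 8 and 33 of the other genes were called from day 2 to day 4. More transcripts were called in general in that fit, 8187 of 17901 against 5684 of 18351 in the main fit. That fit was not possible for the difference between the steps. Leaving out each library in turn gave 0 to 5 calls among the 8 from day 2 to day 4, 2 to 5 for the difference between the steps, 0 to 2 for a fall and return, and among the other genes 6 to 34 from day 2 to day 4 and 2 to 6 for a fall and return (7 with DESeq2, 4 in edgeR). Where it leaves a day with 1 library, that library is assumed to vary like the others. Calls over all transcripts also rose and fell between these fits, so the counts are not results about the listed genes alone.

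Scaling by total counts alone moved the median log2 change of all transcripts to 0.22, -0.09, 0.11 and -0.31 in the 4 comparisons. The share of calls that were higher was then 64.5%, 33.2%, 55.8% and 19.6%, against 50.2%, 47.2%, 50.1% and 43.6% with TMM. Changes under it are relative to those shifts. It left 2 calls for the difference between the steps (lost for Fdft1, 0.0971, Sqle, 0.227, and Insig1, 0.151, adjusted p) and 1 fall and return among the 8, since the later rise of Lss was not called (edgeR adjusted p = 0.116). The fall of Gramd1a at day 2 was not called either (edgeR adjusted p = 0.0989). Uncalled log2 changes turned sign under it: Hmgcs1 -0.04 (difference between the steps), Sqle -0.04 (day 4 against day 2), Insig1 0.18 (day 2 against day 0), and Srebf2 0.05 (day 4 against day 0). The difference between the steps of Cyp51 was 0.01 with relative log expression factors and 0.01 with DESeq2. Leaving out each library, uncalled values that turned sign ranged from -0.04 to 0.15 (Hmgcs1) and -0.18 to 0.16 (Insig1) at day 2 against day 0, -0.02 to 0.21 (Idi1, day 4 against day 2), -0.15 to 0.08 (Cyp51, difference between the steps), and -0.16 to 0.03 (Srebf2, day 4 against day 0). The causes were not tested.

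With the replicate number as a block, 4, 3, 6 and 4 of the 8 genes were called in the 4 comparisons. The block changed 1 call among them, the difference between the steps of Insig1 (0.75, edgeR adjusted p = 0.0568). A second transcript could not be tried, since each of the 8 genes has 1 in the counts.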

Other observations

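Genes of fatty acid synthesis and desaturation, which share SREBP control with the sterol genes, were followed beside them. Of 12 tested, 1 was called higher and 9 lower at day 2 (median log2 change -0.63), where 31.9% of all transcripts were called higher and 31.6% lower. At day 4 against day 0, 1 was higher and 8 lower (median -0.79, against 0.00 for all transcripts), where 36.2% and 36.1% of all transcripts were. Scd2, a stearoyl-CoA desaturase gene, was at 1175 and 1057 CPM at day 0, 165 and 156 at day 2, and 158 and 199 at day 4. All 4 later libraries lay far below day 0, and the log2 change over the 4 days was -2.64 (SE 0.14, 6.25-fold, edgeR adjusted p = 8.38e-08). Scd1, its close relative, fell by 2.02 (SE 0.14, edgeR adjusted p = 4.06e-07), from 143.5 and 117 CPM to 35.3 and 28.8. Fads1, a desaturase of polyunsaturated fatty acids, rose by 0.55 (SE 0.12, edgeR adjusted p = 0.00162), from 86.1 and 75.1 CPM to 107.5 and 128.

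Branches that use isoprenoids for products other than sterols had 4 of 10 genes called higher and 3 lower at day 4 against day 0 (median 0.17), near the 36.2% and 36.1% of all transcripts. Pdss1, which makes the side chain of ubiquinone, fell by 1.74 (SE 0.15, edgeR adjusted p = 1.99e-06), and Nus1, a subunit of the enzyme that makes dolichol precursors, fell by 0.56 (SE 0.10, edgeR adjusted p = 0.000428). Dhdds, the other subunit of that enzyme, rose by 0.44 (SE 0.11, edgeR adjusted p = 0.00487), and Pggt1b, a subunit of a protein prenyltransferase, rose by 0.68 (SE 0.14, edgeR adjusted p = 0.000834).

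Among the 5 genes nearest to the 8 in their median pair of log2 changes (-0.39 at day 2 and 0.22 from day 2 to day 4), out of 10446 genes whose average log2 CPM reached 1 or more, were Actb (-0.41 and 0.21), Pak4 (-0.40 and 0.24), Nbeal2 (-0.39 and 0.24) and Diaph1 (-0.42 and 0.21). The distance of the 5 in that pair ranged from 0.019 to 0.029.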
